A study of Mus musculus with 6 samples.

Results

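AP-1 is a transcription factor built from pairs of basic leucine zipper proteins, and its genes, with a few others, are among the first that cells transcribe after a stimulus. The 10 genes described here were Jun, Junb and Jund (the Jun family), Fos, Fosb, Fosl1 and Fosl2 (the Fos family), Atf3, Egr1 and Ier2. They were taken by symbol from a count table of 38561 genes, and each had a single row there. RNA sequencing had measured them in mouse embryonic stem cell (ESC) cultures, sorted by flow cytometry on PECAM1, a surface adhesion molecule of undifferentiated ESCs, and on the growth factor receptor PDGFRa, a marker of the primitive endoderm lineage. Of the sorted fractions, the PDGFRa-only fraction (PECAM1minPDGFRaplus) lacked PECAM1, the PECAM1-only fraction (PECAM1plusPDGFRamin) lacked PDGFRa, and the double-positive fraction (PECAM1plusPDGFRaplus) carried both.

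All 3 fractions came from undifferentiated ESC cultures (strain 129X1/SvJ x 129S1/Sv) at passages 13 to 17, kept without feeder cells on gelatin with 20% serum replacement and 1000 U/ml of leukemia inhibitory factor. No fraction received a further agent, and cells of all fractions were dissociated, stained and sorted before lysis. Each library was made from amplified RNA of 100000 sorted events. Each fraction had 2 libraries, 6 in all, numbered Exp1 and Exp2 in the labels and called replicates 1 and 2 here. Nothing in the labels says whether these came from separate cultures, so a p measures only the spread between these libraries, which may be technical.

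Proteins of the Jun family pair with each other or with proteins of the Fos and ATF families, whereas Fos proteins need a partner of another family to bind DNA. Serum, growth factors and stress raise many of these genes within minutes through MAP kinases, the serum response factor SRF and the ETS-type proteins that bind beside it, and their RNAs decay quickly. Egr1 is a zinc finger transcription factor that the ERK pathway induces, and Ier2 is a nuclear protein induced by the same kinds of stimuli. In the embryo, primitive endoderm forms beside the pluripotent epiblast under FGF and ERK signalling and gives rise to the extraembryonic endoderm of the yolk sac.

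The sequence just upstream of 3 members is shown because they span the members' results below, from the widest difference (Atf3) through Jun to a gene not called (Fos), and because AP-1 and ATF proteins bind the words TGACTCA and TGACGTCA. RefSeq promoter windows on GRCm38.p6 were matched for 7 of the 10 members, and Egr1 was not among them. The 250 bases before each start were searched on both strands. The 130 bases printed for each gene run 5′ to 3′ on the gene's strand and lie at chr1:191183334-191183463 (minus strand) for Atf3, chr4:95052223-95052352 (minus strand) for Jun and chr12:85473760-85473889 (plus strand) for Fos. Capitals mark a word that is TGACGTCA with 1 base changed and, in Fos, also the TATA box word TATAAA. The RefSeq start used for Atf3 lies inside the gene as GENCODE annotates it.
Atf3: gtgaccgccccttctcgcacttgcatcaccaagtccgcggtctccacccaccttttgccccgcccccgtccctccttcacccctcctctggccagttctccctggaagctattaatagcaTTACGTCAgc
Jun: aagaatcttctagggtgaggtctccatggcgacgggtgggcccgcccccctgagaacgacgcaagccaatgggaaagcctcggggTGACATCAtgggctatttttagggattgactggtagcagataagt
Fos: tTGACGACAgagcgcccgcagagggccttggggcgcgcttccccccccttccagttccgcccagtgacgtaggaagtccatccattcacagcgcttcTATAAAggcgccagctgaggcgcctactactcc

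In Atf3 the word was TTACGTCA at -10 to -3 from the start, in Jun it was TGACATCA at -45 to -38, and in Fos it was TGACGACA at -129 to -122. A word with at most 1 difference from TGACGTCA stood in 10.6% of the 32851 promoter windows of the table, so such a match is common. The Fos window also held TATAAA at -33 to -28, found in 12.4% of windows. CCAAT stood at -65 to -61 in Jun and at -36 to -32 in Junb, and in 33.8% of all windows. In the 7 windows no exact TGACTCA (4.46% of all windows), TGACGTCA (1.55%), GCGTGGGCG (the EGR1 word, 0.536%) or CArG box (the SRF word, 1.47%) was found. This says only that these letters are not in the 250 bases searched, and nothing about Egr1, which was not searched.

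Total counts per library ranged from 4809661 to 7273669, and 13909 genes passed the filter on low counts. Summed levels of 7 primitive endoderm markers were 9147 to 10222 CPM (counts scaled to library size) in the PDGFRa-only fraction, 6742 to 7352 in the double-positive and 18.6 to 21.2 in the PECAM1-only fraction. Those of 7 pluripotency markers were 108 to 153, 436 to 502 and 1459 to 1551 CPM in the same order. A list of 9 endothelial and blood markers summed to 84.9 to 134, 68.2 to 84.0 and 14.7 to 16.2 CPM. Cdh5 made up most of this sum in the fractions with PDGFRa. It measured 117 and 61.0 CPM in PDGFRa-only, 64.0 and 44.6 in double-positive and 0 and 0.157 in PECAM1-only libraries. Kdr was also higher with PDGFRa, but Tek, Tal1 and Gata1 had their highest means in the PECAM1-only fraction. Thus the list did not rise as a whole. Emcn, Erg and Ptprc were at 0 in every library. The 8 fibroblast markers summed to 2.69 to 7.55, 5.04 to 7.20 and 2.47 to 3.61 CPM, with Twist2 and Prrx1 at 0. In such bulk libraries fewer cells of a type and less RNA per cell cannot be told apart, and the part of these marker differences in the results below was not tested.

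**Figure D1:**
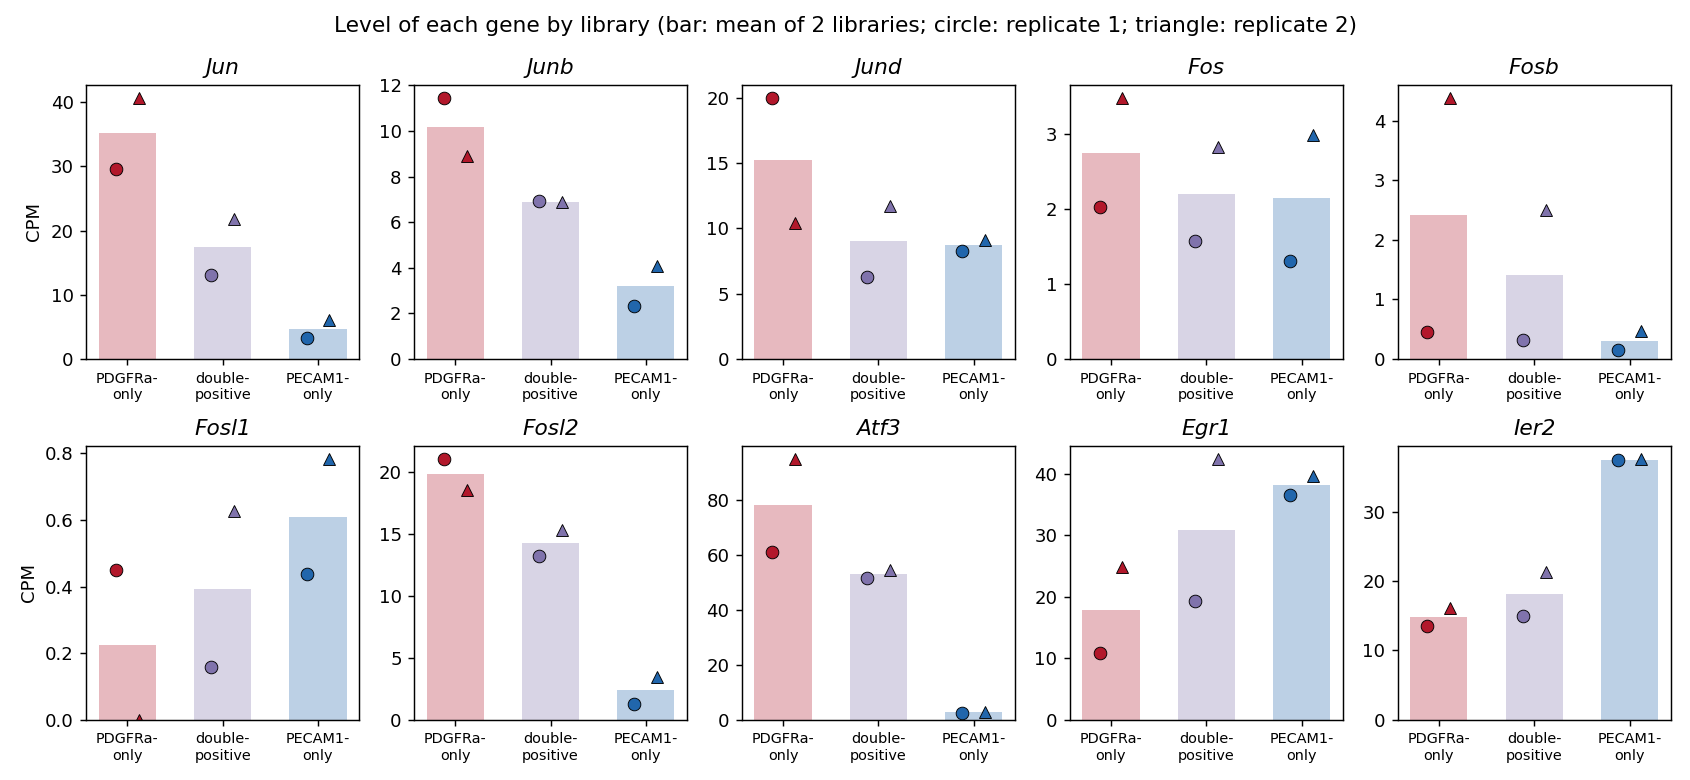
Level of each of the 10 genes in CPM (linear axis from 0, own scale for each gene) in the 3 fractions. Bars are means of 2 libraries, circles replicate 1 and triangles replicate 2. Jun, Junb, Fosl2 and Atf3 were highest in the PDGFRa-only fraction and lowest in the PECAM1-only fraction in both replicates, and Ier2 stood at 37.4 and 37.6 CPM in the PECAM1-only fraction and at 21.3 CPM or lower elsewhere.

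The widest range among the members was that of Atf3, whose protein pairs with Jun proteins and is known as a stress-responsive repressor or activator. Atf3 (ENSMUSG00000026628, GRCm38 chromosome 1, 191170296 to 191218039, minus strand) measured 61.3 and 95.2 CPM in the PDGFRa-only libraries, 51.6 and 54.8 in the double-positive and 2.47 and 2.98 in the PECAM1-only fraction. Both fractions with PDGFRa lay far above the PECAM1-only fraction, and the double-positive libraries lay below both PDGFRa-only libraries. The PDGFRa-only mean of 78.2 ± 24.0 CPM (SD, n = 2) was 28.7-fold above that of the PECAM1-only fraction, 2.73 ± 0.357 CPM, a log2 fold change of 4.84 ± 0.28 (SE; adjusted p = 3.86e-12, edgeR quasi-likelihood test, two-sided, Benjamini-Hochberg over all tested genes). Against the PECAM1-only fraction the double-positive fraction, at 53.2 ± 2.23 CPM, was 19.4-fold higher (log2 4.28 ± 0.28, adjusted p = 7.05e-11).

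Within the Jun family the order of the fractions was that of Atf3 for Jun and Junb, with smaller differences, and Jund had the smallest difference from the PECAM1-only fraction. Jun (ENSMUSG00000052684, chromosome 4, 95049034 to 95052222, minus strand, a single exon of 3189 bases) encodes c-Jun, the defining AP-1 subunit and a target of the JNK kinases. Jun measured 29.6 and 40.6 CPM in the PDGFRa-only libraries, 13.1 and 21.7 in the double-positive and 3.20 and 6.12 in the PECAM1-only fraction. No pair of fractions overlapped. The means of 35.1 ± 7.78, 17.4 ± 6.14 and 4.66 ± 2.06 CPM (SD, n = 2) gave log2 fold changes of 2.93 ± 0.31 for PDGFRa-only against PECAM1-only (adjusted p = 7.57e-08, edgeR) and 1.91 ± 0.32 for double-positive against PECAM1-only (adjusted p = 7.24e-05). Jun was also the single member called between the 2 fractions with PDGFRa, 2.03-fold higher in the PDGFRa-only fraction (log2 1.02 ± 0.27, adjusted p = 0.0114).

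Junb encodes a Jun protein that can restrain c-Jun in some settings. For Junb (ENSMUSG00000052837, chromosome 8, 84974484 to 84978718, minus strand) the libraries held 11.4 and 8.91 CPM in the PDGFRa-only libraries, 6.92 and 6.88 in the double-positive and 2.33 and 4.08 in the PECAM1-only fraction. The libraries fell in the same order as for Jun, again without overlap. Junb was higher than in the PECAM1-only fraction by 3.15-fold in the PDGFRa-only fraction (log2 1.66 ± 0.34, adjusted p = 0.000292, edgeR) and 2.16-fold in the double-positive fraction (log2 1.11 ± 0.35, adjusted p = 0.0155). The second of these calls ended under 4 of 15 alternatives: without PECAM1-only replicate 1 (0.78, adjusted p = 0.190), without double-positive replicate 1 (1.13, adjusted p = 0.0588) or 2 (1.12, adjusted p = 0.0607), and with DESeq2 (1.04, adjusted p = 0.0733). An exon of Prdx2 on the opposite strand shares 173 bases with Junb, and whether the counting used strand is not given in the sources used here, so reads of the shared bases cannot be assigned with certainty.

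Jund encodes the Jun protein that many cell types carry without a stimulus. Jund (ENSMUSG00000071076, chromosome 8, 70698949 to 70700616, plus strand) measured 20.0 and 10.4 CPM in the PDGFRa-only libraries, 6.29 and 11.7 in the double-positive and 8.30 and 9.09 in the PECAM1-only fraction. The PDGFRa-only libraries lay apart from each other, and only replicate 1 stood clear of all other fractions. Jund was 1.71-fold higher in the PDGFRa-only than in the PECAM1-only fraction (log2 0.77 ± 0.32, adjusted p = 0.0451, edgeR). That call ended under 9 of 15 alternatives, among them upper-quartile scaling (0.57, adjusted p = 0.142) and the fit without PDGFRa-only replicate 1 (0.28, adjusted p = 0.493). Without PECAM1-only replicate 1 or 2 it ended too (0.73, adjusted p = 0.162, and 0.85, adjusted p = 0.0991).

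Levels of different genes can be compared per length, here as CPM per kilobase of protein-coding exons. The summed Jun family level was 25.8 ± 2.60 CPM per kilobase (SD, n = 2) in the PDGFRa-only fraction, 14.7 ± 4.22 in the double-positive and 8.45 ± 1.67 in the PECAM1-only fraction. Jund made up 62.6 ± 8.35% of that sum in the PECAM1-only fraction and 34.8 ± 12.2% in the PDGFRa-only fraction. The share of Jun was 16.9 ± 4.32% in the PECAM1-only fraction, 36.8 ± 2.55% in the double-positive and 43.5 ± 13.9% in the PDGFRa-only fraction. Junb stayed between 17.7% and 32.7% of the sum in all 6 libraries. These shares are a description, with no test. Exons on the opposite strand share 877 bases with Jund (Gm11175) and 232 with Jun (Junos), so both genes carry the limit given for Junb.

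The Fos family was sparser, and Fosl2 carried its difference. Fosl2 (ENSMUSG00000029135, chromosome 5, 32135801 to 32157842, plus strand) encodes Fra-2, a Fos protein without the strong activation domain of c-Fos. It measured 21.1 and 18.6 CPM in the PDGFRa-only libraries, 13.2 and 15.3 in the double-positive and 1.31 and 3.45 in the PECAM1-only fraction. Every library with PDGFRa was at least 13.2 CPM and both PECAM1-only libraries were far lower. Fosl2 was 8.35-fold higher in the PDGFRa-only fraction than in the PECAM1-only fraction (log2 3.06 ± 0.34, adjusted p = 1.09e-07, edgeR) and 6.03-fold higher in the double-positive fraction (log2 2.59 ± 0.34, adjusted p = 3.27e-06). Without PECAM1-only replicate 2, the higher of that fraction, these log2 fold changes were 3.90 and 3.44, and without replicate 1 they were 2.53 and 2.07.

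Fos itself, the gene of c-Fos and the best known immediate early gene, was low in every library. Fos (ENSMUSG00000021250, chromosome 12, 85473890 to 85477273, plus strand) measured 2.02 and 3.47 CPM in the PDGFRa-only libraries, 1.57 and 2.82 in the double-positive and 1.31 and 2.98 in the PECAM1-only fraction, from 9 to 23 counts a library. The fractions overlapped, and replicate 2 was the higher library in each. No difference was called for Fos: the log2 fold change of PDGFRa-only against PECAM1-only was 0.41 with a 95% interval of -0.67 to 1.497 (adjusted p = 0.515, edgeR), which leaves room for a change of more than 1 log2 unit at this depth.

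The remaining Fos genes gave few counts. Fosb (ENSMUSG00000003545, chromosome 7, 19302696 to 19310051, minus strand) had 2 and 29 counts in PDGFRa-only, 2 and 16 in the double-positive and 1 and 3 in the PECAM1-only fraction, that is 0.449 and 4.38, 0.315 and 2.50, and 0.146 and 0.470 CPM. It passed the filter on low counts through replicate 2 of the PDGFRa-only and double-positive fractions alone. Since Fosb entered the fit through libraries where it is high, its difference is tied to the filter, and its log2 fold change of 3.05 ± 1.06 (SE) for PDGFRa-only against PECAM1-only, though past the threshold, is given as a description. That value was 0.54 with an adjusted p of 0.786 without PDGFRa-only replicate 2, and 2.44 with an adjusted p of 0.132 without PECAM1-only replicate 1 (edgeR). Fosl1, the gene of Fra-1 (ENSMUSG00000024912, chromosome 19, 5447547 to 5455946, plus strand), was not tested, with 15 counts over all libraries. Its libraries had 2 and 0 counts in PDGFRa-only, 1 and 4 in the double-positive and 3 and 5 in the PECAM1-only fraction, and the 0 allows up to 0.453 CPM by a floor of 3 counts. Of its exons, 1163 bases are shared with Ccdc85b on the opposite strand.

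Per kilobase, the Fos family summed to 5.10 ± 0.780 CPM (SD, n = 2) in the PDGFRa-only fraction, 3.81 ± 1.23 in the double-positive and 1.79 ± 0.984 in the PECAM1-only fraction. Fosl2 made up 60.7 ± 14.6% of this sum in the PDGFRa-only fraction, 59.5 ± 13.3% in the double-positive and 19.8 ± 2.06% in the PECAM1-only fraction. Fos made up 56.8 ± 0.0541% in the PECAM1-only fraction and 25.1 ± 5.72% in the PDGFRa-only fraction. The PECAM1-only shares rest on few counts: 9 and 19 of Fos, 9 and 22 of Fosl2, 3 and 5 of Fosl1 and 1 and 3 of Fosb. An SD of 2 libraries leaves out this counting error, so the small SD of Fos does not make its share precise. The overlap of Fosl1 with Ccdc85b applies here too. Atf3 reached 36.3 CPM per kilobase in the PDGFRa-only fraction, above the summed Jun family in the same libraries, and 1.27 in the PECAM1-only fraction.

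**Figure D2:**
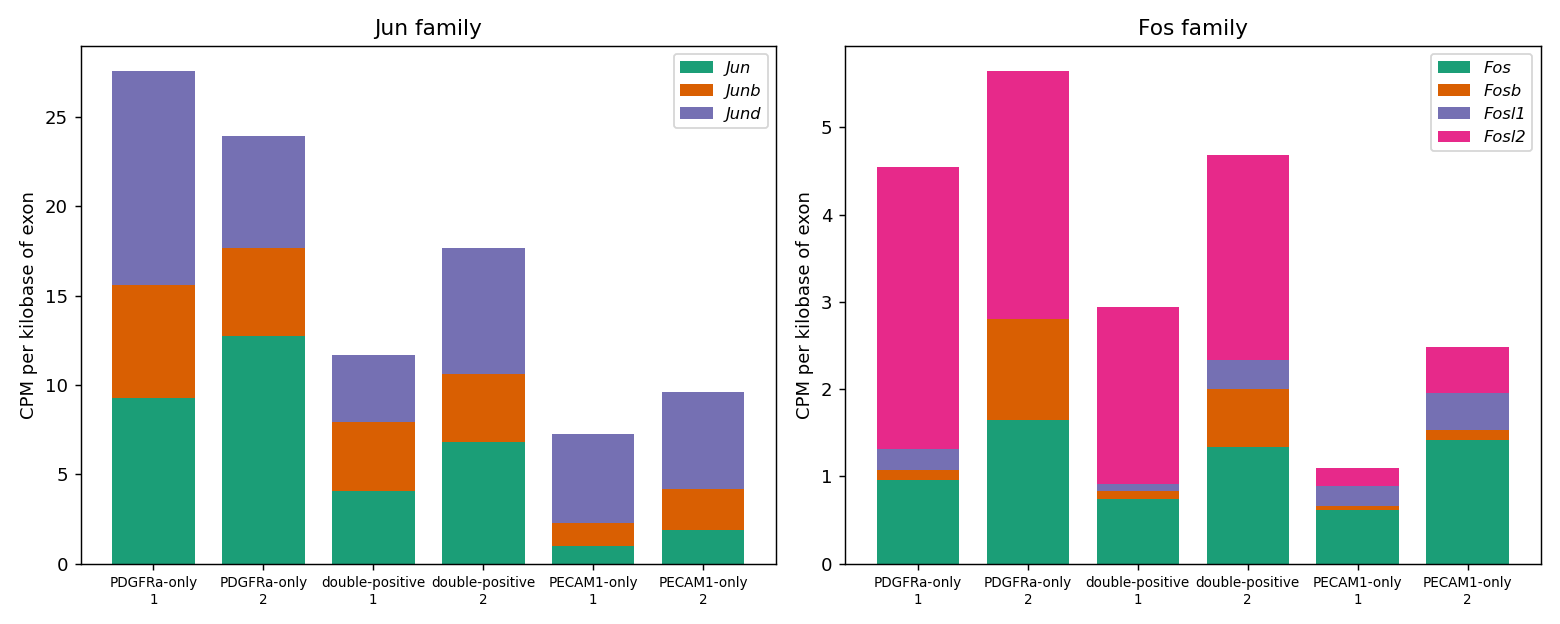
Summed level of the Jun family (left) and of the Fos family (right) in CPM per kilobase of exon, one stacked bar for each library, on linear axes from 0. The Jun family sums lay at 23.9 and 27.6 in the PDGFRa-only libraries and at 7.27 and 9.62 in the PECAM1-only libraries, where Jund was the largest segment. In the Fos family Fosl2 was the largest segment in every library with PDGFRa.

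Egr1 and Ier2 had their lowest mean levels in the PDGFRa-only fraction and their highest in the PECAM1-only fraction. Ier2 (ENSMUSG00000053560, chromosome 8, 84661331 to 84662852, minus strand) measured 13.5 and 16.2 CPM in the PDGFRa-only libraries, 14.9 and 21.3 in the double-positive and 37.4 and 37.6 in the PECAM1-only fraction. The fractions with PDGFRa overlapped and both lay below the PECAM1-only libraries. Ier2 was 2.51-fold lower in the PDGFRa-only fraction than in the PECAM1-only fraction (log2 -1.33 ± 0.22, adjusted p = 3.28e-05, edgeR) and 2.07-fold lower in the double-positive fraction (log2 -1.05 ± 0.22, adjusted p = 0.000614).

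Egr1 (ENSMUSG00000038418, chromosome 18, 34859823 to 34864984, plus strand) measured 10.8 and 24.8 CPM in the PDGFRa-only libraries, 19.4 and 42.4 in the double-positive and 36.5 and 39.7 in the PECAM1-only fraction. The PDGFRa-only libraries lay below the PECAM1-only libraries, while the double-positive libraries overlapped with both. Egr1 was 2.08-fold lower in the PDGFRa-only than in the PECAM1-only fraction (log2 -1.06 ± 0.37, adjusted p = 0.0264, edgeR), and its double-positive level was not called different from PECAM1-only (log2 -0.30, 95% interval -1.07 to 0.47, adjusted p = 0.544). The first of these calls ended under 5 of 15 alternatives: without PDGFRa-only replicate 1 (-0.60, adjusted p = 0.223), without PECAM1-only replicate 1 (-1.11, adjusted p = 0.115) or 2 (-0.999, adjusted p = 0.144), with DESeq2 (-1.13, adjusted p = 0.125) and with the deposited RPKM at a pseudocount of 0.1 (-1.67, adjusted p = 0.0665). The second was called without double-positive replicate 2 (-0.97, adjusted p = 0.0257).

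When PDGFRa-only was compared with PECAM1-only, 5 of 8 members (Jun, Junb, Jund, Fosl2 and Atf3) were called higher in the PDGFRa-only fraction, 2 (Egr1 and Ier2) lower, and Fos was not called. Fosb, called higher, is left out of this count because of how it passed the filter. Fosl2 is kept in it, with the limit on its PECAM1-only counts given above. Of all tested genes 59.0% were called in this comparison, 30.1% higher and 28.8% lower, so that a call by itself is common. The libraries of the pair did not overlap for 7 of these 8 members and for 77.8% of all tested genes. The median log2 fold change was 1.22 over the 8 members and 0.01 over all tested genes. Of all calls 51.1% were higher under the scaling used, 41.5% under upper-quartile and 37.8% under library-size scaling, which moved the median of all genes to -0.20 and -0.28. Jun, Junb, Fosl2, Atf3 and Ier2 kept their call and direction under all 15 alternatives, and the count of members called was 5 without PECAM1-only replicate 1, against 8 with Fosb included.

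Between the double-positive and PECAM1-only fractions, 4 of the same 8 members (Jun, Junb, Fosl2 and Atf3) were called higher in the double-positive fraction, Ier2 lower, and Jund, Fos and Egr1 were not called. The share called was 38.2% of all tested genes, 21.8% higher and 16.4% lower. The pair of fractions did not overlap for Jun, Junb, Fosl2, Atf3 and Ier2, 5 of the 8 members, and for 71.7% of all tested genes. The median over the 8 members was 0.58, and that of all tested genes was -0.01. Jund, at log2 0.05 with a 95% interval of -0.64 to 0.75, and Fos, at 0.05 with an interval of -1.06 to 1.15, had estimates near 0, and both were below 0 under upper-quartile and library-size scaling. Fosb, at 2.15 (adjusted p = 0.148), passed the threshold with no count filter (2.19, adjusted p = 0.0313), without PDGFRa-only replicate 1 (2.16, adjusted p = 0.0435) and without double-positive replicate 1 (2.99, adjusted p = 0.0225). Of the calls over all genes 57.0% were higher, against 43.3% and 39.8% under upper-quartile and library-size scaling.

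The 2 fractions with PDGFRa differed least. Of the 8 members Jun alone was called between them, and 7 were not (nor was Fosb), against 17.6% of all tested genes called, of which 5.94% were higher in PDGFRa-only and 11.7% lower. Atf3, at log2 0.56 with a 95% interval of 0.15 to 0.98, just missed the threshold (adjusted p = 0.0550, edgeR) and was called once PDGFRa-only replicate 1 was left out (0.84, adjusted p = 0.00104), as well as with no count filter (0.55, adjusted p = 0.0370). Libraries did not overlap for Jun, Junb, Fosl2 and Atf3, 4 of the 8 members, and for 57.5% of all tested genes. The estimates of Fosl2 (0.47, interval -0.09 to 1.03), Junb (0.55, interval -0.10 to 1.197) and Ier2 (-0.28, interval -0.77 to 0.21) left room for changes on both sides of 0. The call of Jun ended without PDGFRa-only replicate 2 (0.76, adjusted p = 0.0677), without double-positive replicate 1 (0.69, adjusted p = 0.184) and with the deposited RPKM (0.78, adjusted p = 0.224 at a pseudocount of 1). Egr1, not called in this pair (-0.76, adjusted p = 0.193), was called with no count filter (-0.77, adjusted p = 0.00895), without PDGFRa-only replicate 2 (-1.52, adjusted p = 0.0494) and without double-positive replicate 1 (-1.23, adjusted p = 0.00622). Jund (0.72, adjusted p = 0.130) was called without PDGFRa-only replicate 2 (1.14, adjusted p = 0.00753) and without double-positive replicate 2 (1.24, adjusted p = 0.0379). Over all genes 33.7% of calls were higher in the PDGFRa-only fraction, against 21.9% under library-size scaling.

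The comparisons share libraries, so their values for a member are not independent. Set side by side, the levels of Jun, Junb, Fosl2 and Atf3 stood in the order PDGFRa-only, double-positive, PECAM1-only, and of the neighbours in that order PDGFRa-only and double-positive were told apart for Jun alone by the edgeR fit described, with the exceptions under other settings given above for Atf3. Ier2 and Egr1 had the opposite order of means, in which double-positive and PECAM1-only were told apart for Ier2 and not for Egr1, and PDGFRa-only and double-positive for neither by that fit.

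**Figure D3:**
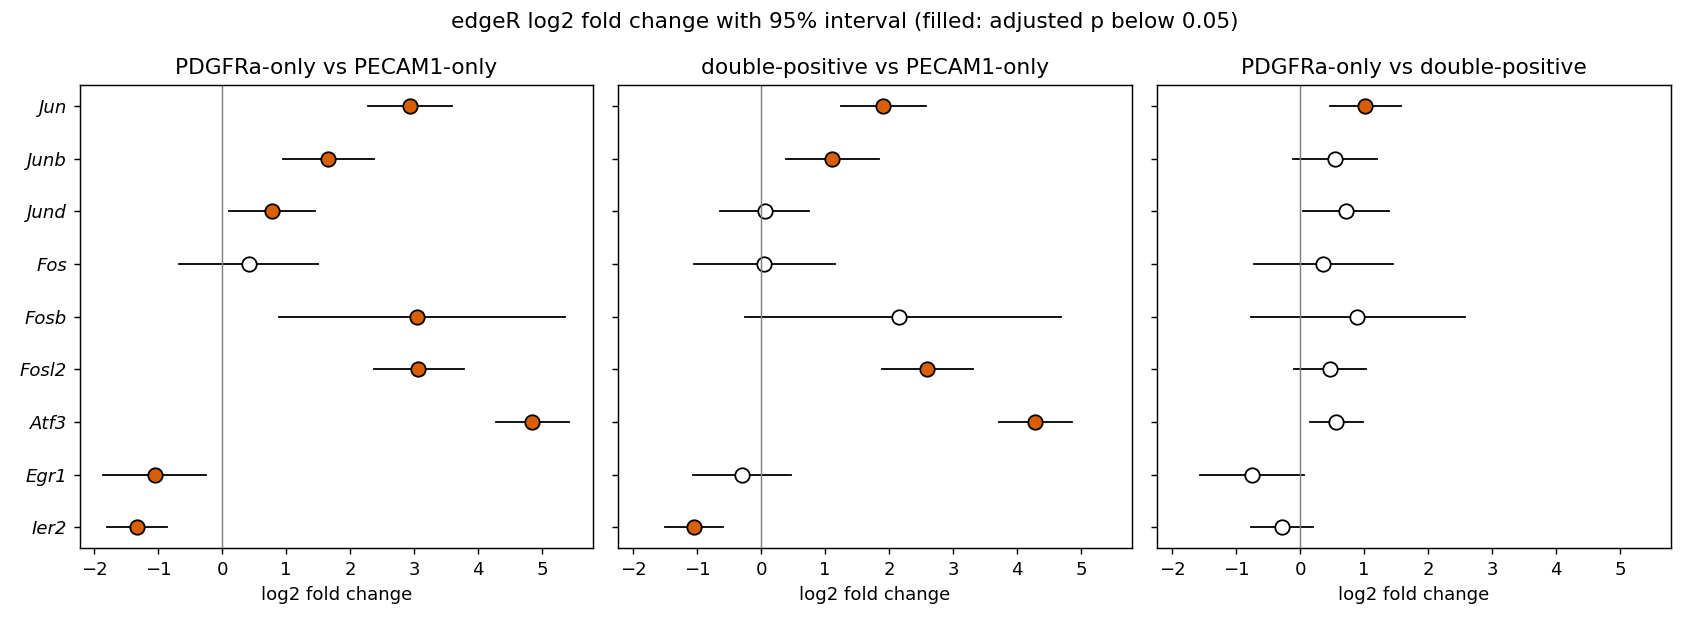
Log2 fold change (x axis) of the 9 tested members (y axis) in the 3 comparisons, one panel each, from the edgeR fit. Circles are estimates, bars 95% intervals, and filled circles passed an adjusted p of 0.05. Atf3 stood farthest to the right against the PECAM1-only fraction (4.84 and 4.28), Egr1 and Ier2 were left of 0 in every panel, and Jun was the single filled circle between the fractions with PDGFRa.

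Replicates differed in a like way across fractions for part of the members. In all 3 fractions replicate 2 was the higher library for Jun, Fos, Atf3, Egr1 and Ier2, and also for Fosb. With Fosb included these were 6 of the 9 tested members, compared with 15.5% of all tested genes. In the edgeR fit with the replicate number as a block, the replicate difference passed an adjusted p of 0.05 for 0 of the 9 members. It did so for 0 of 29 other immediate early genes and for 1 of 13909 tested genes. Fosb passed the filter on low counts through replicate 2 of the PDGFRa-only and double-positive fractions alone. Its direction there is therefore tied to the filter. As a description, the ratio of replicate 2 to replicate 1 for Fosb was 9.76 in the PDGFRa-only, 7.95 in the double-positive and 3.23 in the PECAM1-only fraction. Egr1 had ratios of 2.30, 2.19 and 1.09, and Fos of 1.72, 1.79 and 2.27. Jund went from 0.522 in the PDGFRa-only to 1.86 in the double-positive fraction. Among 29 tested immediate early genes outside the members, 12 were higher in replicate 2 of every fraction, among them Ier3 (ratios of 2.096, 2.36 and 1.77) and Dusp1 (1.54, 1.77 and 1.67), and Myc was higher in replicate 1 of every fraction. These genes were picked after their values were seen.

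**Figure D4:**
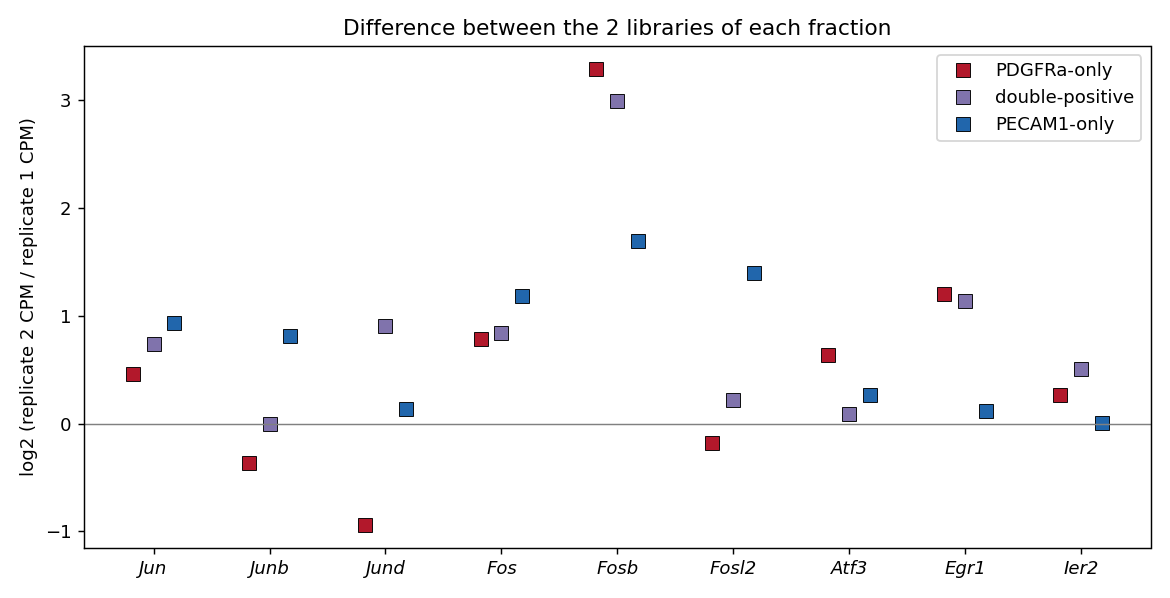
Log2 ratio of the level in replicate 2 to that in replicate 1 (y axis) for the 9 tested members (x axis), with one square for each fraction. Jun, Fos, Fosb, Atf3, Egr1 and Ier2 have all 3 squares above 0. Fosb, which passed the filter on low counts through replicate 2 libraries alone, has the highest squares. Jund, Junb and Fosl2 have squares on both sides of 0.

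Other immediate early genes did not share 1 direction. Of 35 listed genes 29 were tested, and 15 were called higher and 10 lower in the PDGFRa-only than in the PECAM1-only fraction (median 0.65; edgeR, background 59.0% called). Upper-quartile and library-size scaling each gave 13 higher and 10 lower. The counts of this list include genes such as Nr4a3, Ier5l and Arc, which passed the filter on low counts only through fractions where they are higher. Their calls are tied to the filter. Klf6, a zinc finger transcription factor, rose from 51.0 ± 6.07 CPM (SD, n = 2) in the PECAM1-only to 270 ± 30.6 in the PDGFRa-only fraction (log2 2.40, adjusted p = 1.70e-10). The secreted matricellular protein gene Cyr61 rose from 16.2 ± 6.30 to 248 ± 53.9 CPM (log2 3.94, adjusted p = 1.12e-09), and Rhob, a small GTPase, from 9.34 ± 2.09 to 41.5 ± 9.93 CPM (log2 2.14, adjusted p = 1.40e-07). Klf10, a repressor induced by TGF-beta, was among those that fell, from 84.6 ± 1.43 to 14.7 ± 2.14 CPM (log2 -2.54, adjusted p = 5.61e-10).

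For these 4 genes the double-positive fraction lay between the others, at 205 ± 23.0 CPM for Klf6, 146 ± 45.7 for Cyr61, 26.3 ± 0.216 for Rhob and 43.2 ± 2.82 for Klf10. Over the list, 12 genes were called higher and 6 lower in the double-positive than in the PECAM1-only fraction, and 3 higher and 5 lower in the PDGFRa-only than in the double-positive fraction, where 38.2% and 17.6% of all tested genes were called. The second count, 8 genes in all, was 5 without double-positive replicate 2 and with DESeq2. Egr3 and Npas4 had 0 counts in every library.

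**Figure D5:**
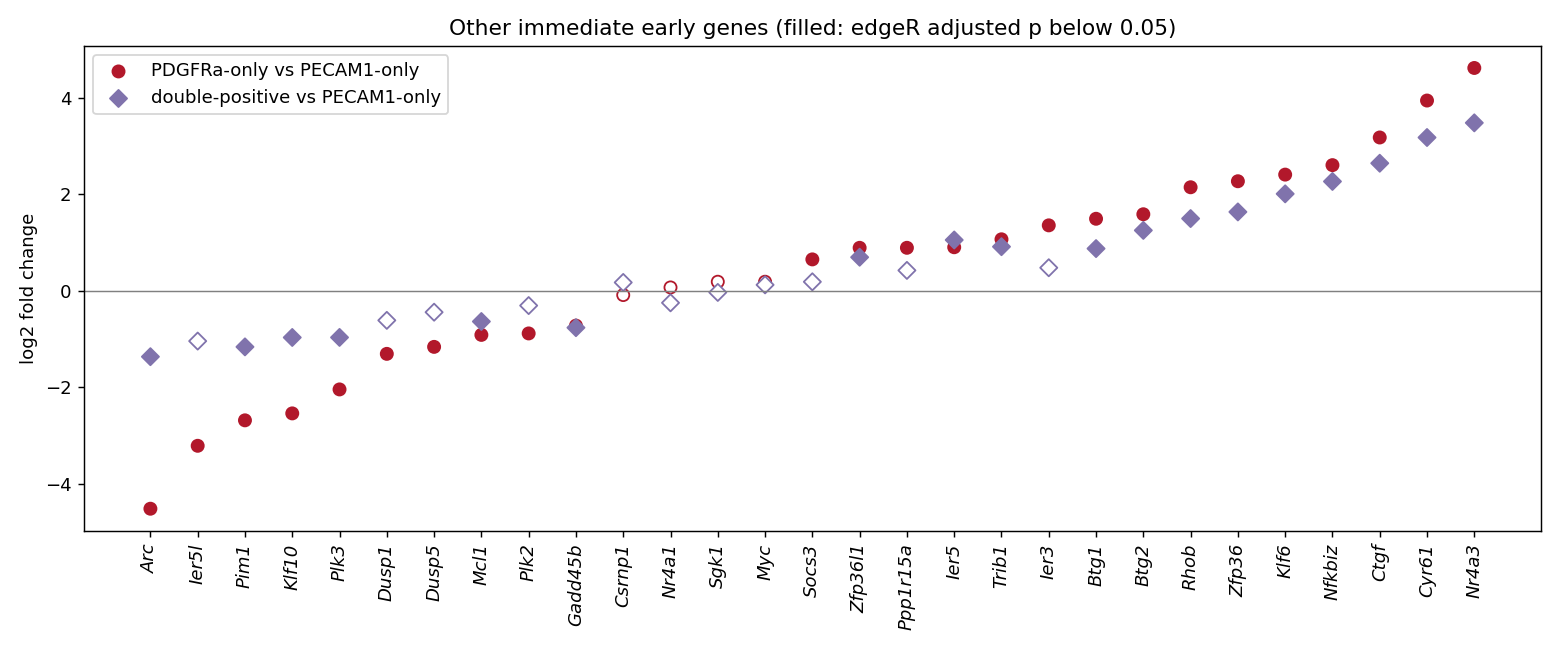
Log2 fold change (y axis) of the 29 tested immediate early genes outside the members (x axis, ordered by the PDGFRa-only against PECAM1-only value). Circles compare PDGFRa-only with PECAM1-only and diamonds double-positive with PECAM1-only, and filled symbols passed an adjusted p of 0.05. Values ran from -4.52 for Arc to 4.61 for Nr4a3, with 15 filled circles above 0 and 10 below, both genes included. Arc had 5 counts in the PDGFRa-only fraction and Nr4a3 had 2 in the PECAM1-only fraction. Both passed the filter on low counts through the other fractions alone, so their values are tied to the filter.

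Other basic leucine zipper genes whose proteins can pair with Jun or Fos proteins were listed too. Of 10 genes with a single row 6 were tested, and Mafk, Maff and Mafg, which encode small Maf proteins, were called higher in the PDGFRa-only than in the PECAM1-only fraction, 3 of 5 without Maf (59.0% of all tested genes called). Against PECAM1-only the same 3 genes were called higher in the double-positive fraction (38.2% of all tested genes called). With Maf included, that count of 4 was 2 without double-positive replicate 1, and it was 1 when PECAM1-only replicate 1 was left out. Mafk measured 28.8 ± 4.18 CPM (SD, n = 2) in the PDGFRa-only, 19.6 ± 1.19 in the double-positive and 6.59 ± 0.880 in the PECAM1-only fraction (log2 2.13, adjusted p = 2.02e-07, edgeR, PDGFRa-only against PECAM1-only). Maff measured 22.5 ± 6.42, 12.8 ± 2.06 and 5.91 ± 0.951 CPM in the same order (log2 1.94, adjusted p = 3.92e-06). Maf, a large Maf protein gene, passed the filter on low counts through the PDGFRa-only fraction alone, so its call is not counted. Maf had 0 counts in both PECAM1-only libraries and 23 counts over both PDGFRa-only libraries, at least 9.17-fold higher against a floor of 3 counts over the fraction. The call of Mafg, at log2 0.55 (adjusted p = 0.0110), ended with scaling by the upper quartile (0.34, adjusted p = 0.0959) or by library size (0.26), which each gave 3 genes higher, Maf included, and 1 lower, and without PDGFRa-only replicate 2 (0.43) or PECAM1-only replicate 1 (0.47). Atf2, known as a partner of c-Jun, was at log2 -0.32 (adjusted p = 0.0867).

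Upstream of AP-1, few calls were made for SRF and its cofactors in the edgeR fit described. Elk4, an ETS-type partner of SRF, was the single gene called of 6 tested, where 59.0% of all genes were called (43.3 ± 1.30 CPM in the PDGFRa-only against 25.6 ± 5.17 in the PECAM1-only fraction; log2 0.76, adjusted p = 0.00262, edgeR). Srf itself measured 42.4 ± 15.3 and 29.5 ± 5.82 CPM (log2 0.51, adjusted p = 0.0643). The call of Elk4 ended under 3 of 15 alternatives: without PECAM1-only replicate 2 (0.57) and with the deposited RPKM (limma; 0.46, adjusted p = 0.0523, and 0.53, adjusted p = 0.0775, at pseudocounts of 1 and 0.1). Srf was called under 4 of 15: with no count filter (0.53, adjusted p = 0.0281, edgeR), with the replicate number as a block (0.495, adjusted p = 0.0297, edgeR), and without PDGFRa-only replicate 2 (0.85) or PECAM1-only replicate 1 (0.74). Under library-size scaling 1 gene was called higher and 2 (Mkl2 and Elk3) lower.

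Of 13 MAP kinase genes all were tested, and 6 were called higher and 1 lower in the PDGFRa-only than in the PECAM1-only fraction (median 0.20), 53.8% of the list against 59.0% of all tested genes. Upper-quartile scaling gave 5 higher and 2 lower, and library-size scaling 4 and 3. Mapk3, the gene of ERK1, measured 94.1 ± 16.8 CPM (SD, n = 2) in the PDGFRa-only and 27.2 ± 8.37 in the PECAM1-only fraction (log2 1.79, adjusted p = 2.58e-07, edgeR). Map3k1, a kinase upstream of JNK, measured 196 ± 17.5 and 74.1 ± 2.29 CPM (log2 1.41, adjusted p = 3.52e-07). The gene called lower was Mapk10, a JNK best known from neurons, with 0.565 ± 0.482 against 4.69 ± 0.246 CPM. Mapk10 passed the filter on low counts through the PECAM1-only fraction alone, so its call in the count above is tied to the filter. Its log2 fold change of -2.87, though past the threshold, is given as a description. Its log2 fold change was -4.26 without PDGFRa-only replicate 2 and -2.33 without replicate 1, and the call ended with the deposited RPKM at a pseudocount of 1 (-0.29, adjusted p = 0.0845). Mapk8 (JNK1; log2 -0.30, adjusted p = 0.159) and Mapk9 (JNK2; log2 0.20, adjusted p = 0.316) were not called.

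Textbook AP-1 target genes were split as well. Of 11 listed genes 6 were tested and all 6 were called with Cd44 and Ccnd1 included, where 59.0% of all tested genes were called, 30.1% higher and 28.8% lower. Plaur, Timp1 and Hmox1 were called higher and Ccnd1 and Spp1 lower in the PDGFRa-only than in the PECAM1-only fraction. Cd44 was called higher too, but the calls of Cd44 and Ccnd1 are tied to how they passed the filter, given below. Under upper-quartile and library-size scaling 3 were higher, Cd44 included, and 2 lower, Ccnd1 included. Plaur, the receptor of urokinase, measured 79.6 ± 18.6 CPM (SD, n = 2) in the PDGFRa-only, 55.5 ± 5.66 in the double-positive and 2.45 ± 1.41 in the PECAM1-only fraction (log2 5.03, adjusted p = 6.47e-12, edgeR, PDGFRa-only against PECAM1-only, and 5.76 without PECAM1-only replicate 2). Timp1, an inhibitor of matrix metalloproteinases, measured 78.0 ± 2.78, 43.6 ± 5.61 and 9.67 ± 3.18 CPM (log2 3.01, adjusted p = 3.12e-10). Cd44, a hyaluronan receptor, had 3 counts in the PECAM1-only fraction, all in replicate 2, and 66 over both PDGFRa-only libraries, a ratio of 26.3 with an exact 95% counting interval of 8.62 to 131, and it passed the filter on low counts through the fractions with PDGFRa. Ccnd1, the gene of cyclin D1, measured 1.80 and 0.604 CPM in the PDGFRa-only libraries, 18.1 and 22.1 in the double-positive and 52.7 and 73.5 in the PECAM1-only libraries. It had 12 counts over both PDGFRa-only libraries and passed the filter on low counts through the double-positive and PECAM1-only fractions, where it was higher. Its log2 fold change of -5.82 for PDGFRa-only against PECAM1-only, though past the threshold, is therefore given as a description. That value was -6.64 without PDGFRa-only replicate 1 and -5.11 without replicate 2. The matrix metalloproteinase genes Mmp3, Mmp10 and Mmp13 had 1 count each over all libraries.

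The genes whose level followed a member most closely over the 6 libraries were found by the distance between log2 CPM values centred on each gene's mean, among genes with a mean of at least 5 CPM. For Atf3 these were Ctsl (distance 0.309; 5451 ± 2022 CPM in the PDGFRa-only and 186 ± 25.8 in the PECAM1-only fraction), F2r (0.376) and Anxa5 (0.397). For Jun they were Cldn7 (0.349), Soat2 (0.433) and Itm2c (0.490). Fos was followed by Ftl1 (0.421), Slc44a2 (0.497) and Cald1 (0.514), whose means differed little between fractions while replicate libraries differed. Egr1 was followed by Spry1 (0.406; 3.13 ± 1.56 CPM in the PDGFRa-only and 7.13 ± 1.44 in the PECAM1-only fraction), Rad51b (0.425) and Flnc (0.531). With 6 libraries in 3 fractions many genes share such a profile, and the distances are a description.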

How the data were processed

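The 6 libraries were analysed from the deposited count table, which holds raw counts per Ensembl gene. Per the submitters' processing notes, cutadapt 1.2.1, Bowtie2 2.1.0, TopHat2 2.0.8b, HTSeq 0.5.4p3 and the build GRCm38 were used; their roles are not given. A second deposited table holds the authors' RPKM values of 16105 genes, 9 of the members among them, with a preprocessing not given in the sources used here; 6 genes have 1 value in all libraries (tolerance 0). RPKM served as an alternative only (limma 3.58.1 on log2 of RPKM plus a pseudocount of 1 or 0.1, a scale that understates changes of low genes).

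Counts were tested with edgeR 4.0.16 in R 4.3.3: filterByExpr with a minimum count of 10, TMM scaling, 1 mean per fraction, a robust quasi-likelihood fit over all 6 libraries (3 residual degrees of freedom), two-sided tests and Benjamini-Hochberg adjustment over 13909 genes with a threshold of 0.05. CPM use the TMM-scaled library sizes. The biological coefficient of variation was 13.5%. Positions, exon lengths and symbols came from GENCODE M21, which matched 36639 identifiers. Floors and intervals cover counting error only, since RNA was amplified and the labels name no molecular identifiers.

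The text names all members, and of each other list up to 4 genes with the smallest p for PDGFRa-only against PECAM1-only; others named were chosen after their values were seen. The 3 nearest genes by profile were named for Jun, Fos, Atf3 and Egr1. The members, the lists (other AP-1 partners, other immediate early genes, SRF and cofactors, MAP kinases, textbook AP-1 targets, integrated stress response, heat shock and the markers) and the tests were chosen with earlier results of these data known. Atf7 stands on 2 rows and was left out. The edgeR script was tested on simulated data. Alternatives were upper-quartile and library-size scaling, other count filters, the replicate number as a block, fits of 2 fractions, leaving out each library, DESeq2 1.42.0 and RPKM; counts of members without Fosb and of partners without Maf were added after seeing the data. Python 3.11.15, pandas 2.3.3 and matplotlib 3.10.9 were also used.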

Additional observations from a re-analysis of the deposited data

How the results depend on the processing

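Of 397 values of single members under the alternatives, 340 kept their direction and their side of the threshold, 26 lost a call, 14 gained one and 17 changed direction, all 17 for estimates that were not called. Members called for PDGFRa-only against PECAM1-only numbered 8 with Fosb included (7 without), and 5 to 8 when each library was left out in turn, with 5 without PECAM1-only replicate 1. Between the fractions with PDGFRa the count was 1, against 3 with no count filter (Jun, Atf3 and Egr1) and 1 to 2 with single libraries left out, and the count of all genes called was 2450, against 1326 to 2945. Below 0 between the double-positive and PECAM1-only fractions were Jund with upper-quartile scaling (-0.11), library-size scaling (-0.16), DESeq2 (-0.0183) and RPKM (-0.1875 and -0.22 at pseudocounts of 1 and 0.1), and Fos with upper-quartile scaling (-0.12), library-size scaling (-0.17) and DESeq2 (-0.0296). With single libraries left out the log2 fold changes ran from -0.46 to 0.46 for Jund, -0.42 to 0.75 for Fos and -0.97 to 0.18 for Egr1 in that comparison, from -0.0661 to 1.10 for Fos between PDGFRa-only and PECAM1-only, and from -0.12 to 0.84 for Fos and -1.61 to 2.97 for Fosb between the fractions with PDGFRa; the cause was not tested. Where an arm was left with 1 library, that library was assumed to vary like the others. Depth limits Fos, Fosb and Fosl1 most, with 88, 53 and 15 counts over all libraries.

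The shared replicate numbers were checked for pairing: the differences between replicates 2 and 1 correlated across 13909 genes at -0.03 between PDGFRa-only and PECAM1-only, 0.13 between PDGFRa-only and double-positive and 0.18 between PECAM1-only and double-positive, so not every pair passed 0.1 and the numbers were not taken as pairs. With the replicate number as a block, members called were 8, 6 and 3 in the 3 comparisons (8, 5 and 1 without it; added were Fosb at 2.08, adjusted p = 0.0435, for double-positive against PECAM1-only, and Atf3 at 0.53, adjusted p = 0.0381, and Egr1 at -0.78, adjusted p = 0.0293, between the fractions with PDGFRa) and all genes called 8397, 5644 and 2834 (8205, 5319 and 2450 without it).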

Other observations

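Stress genes outside AP-1 were mixed when PDGFRa-only was compared with PECAM1-only. Of 8 integrated stress response genes, all tested, 2 were called higher (Atf4 and Asns) and 4 lower (Ddit4, Chac1, Trib3 and Sesn2; edgeR), 75.0% of the list against 59.0% of all tested genes. For this list, upper-quartile and library-size scaling each gave 1 higher and 4 lower. Atf4, the central transcription factor of that response, measured 254 ± 23.3 CPM (SD, n = 2) in the PDGFRa-only and 130 ± 8.56 in the PECAM1-only fraction (log2 0.96, adjusted p = 2.02e-05). Ddit4, an inhibitor of mTORC1 signalling, measured 6.49 ± 2.56 and 26.5 ± 13.5 CPM (log2 -2.07, adjusted p = 0.000126, and -1.42 without PECAM1-only replicate 2), and the glutathione-degrading enzyme gene Chac1 7.07 ± 1.11 and 16.4 ± 2.56 CPM (log2 -1.20, adjusted p = 0.000867).

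Of 9 heat shock genes 8 were tested, and 2 were called higher (Hsph1 and Dnajb1) and 2 lower (Hsp90aa1 and Hspa1b) in the PDGFRa-only fraction, 4 of 8 against 59.0% of all tested genes. Upper-quartile and library-size scaling each gave 2 higher and 5 lower, and Hspa1b was called under 9 of 14 alternatives. Hsp90aa1, the inducible cytosolic HSP90 chaperone, measured 227 ± 15.0 against 676 ± 17.1 CPM (log2 -1.57, adjusted p = 2.51e-08), and Hsph1 894 ± 16.6 against 483 ± 70.9 CPM (log2 0.89, adjusted p = 9.07e-05).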
